A study of Mus musculus with 6 samples.

Results

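Mitosis is driven by a set of proteins that cells make in quantity only in the G2 and M phases. Cyclin-dependent kinase 1 with its A and B cyclins starts mitosis, the spindle and kinetochores attach and align the chromosomes, and the anaphase-promoting complex then marks cyclins and other proteins for destruction so that the cell can divide. Because their transcripts peak late in the cycle, the summed level of such genes in bulk RNA is widely read as a measure of how many cells are dividing. In bone marrow, committed progenitors cycle often, while most stem cells are quiescent. In bulk samples, fewer cycling cells and less mitotic RNA in each cycling cell cannot be told apart.

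The 35 genes described here were chosen by name, each a known gene of G2 or M phase, out of 26027 in the count table. Each name matched 1 row, and all 35 were among the 17144 genes with enough counts to be tested. They were measured by total RNA sequencing, after ribosomal RNA was depleted, of Lin-/cKit+/eYFP+ cells sorted from bone marrow, which the labels call immature haematopoietic multipotent progenitors. The study compared 3 libraries from Srsf2 P95H/+ mice with 3 from Srsf2 +/+ (wild-type) mice. All were tamoxifen-treated C57BL/6 mice with hScl-CreERT, an inducible Cre recombinase, and R26eYFP, a reporter of cells in which Cre has acted. Srsf2 is a splicing factor, and P95H is a substitution found in myeloid neoplasms. Wild-type replicate 1 came from a female aged 54 weeks, and the other 5 libraries came from animals aged 32 weeks. The males were the animals of wild-type replicates 2 and 3 and of P95H/+ replicate 3, while both remaining P95H/+ libraries came from females. The labels do not say whether animals were pooled, so p-values measure the spread between libraries.

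Libraries held 10747941 to 23010510 counts, and the lowest count of any of the 35 genes in any library was 163, so counting error was small. Kit, the surface receptor used in the sort, stood at 476 to 548 CPM (counts per 1000000 of the library) in all 6 libraries. The T cell gene Cd3e stood at 0.348 CPM or less. Srsf2 itself stood at 315 to 343 CPM, and counts per gene do not show its base change. The replicate 3 libraries of wild type and of P95H/+ differed from the other 4, as described below for the mitotic genes, so the genotype comparison is given with and without these 2.

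Promoters of G2 and M phase genes are known for a cell cycle homology region (CHR, TTTGAA), through which MuvB complexes act, and for CCAAT boxes (CCAAT), which bind NF-Y. RefSeq promoter windows on GRCm38.p6, from 250 bases before to 50 bases after a gene's first listed start, were matched by symbol for 29 of the 35 genes. Both strands were searched, and matches of both motifs could overlap. TTTGAA was present in 23 of 29 windows (79.3%), against 18.1% of the windows of 27025 genes of all kinds. CCAAT was present in 23 of 29 (79.3%) against 37.9%, and 2 or more CCAAT in 17 of 29 (58.6%) against 12.2%. Both motifs stood together in 20 of 29 (69%) against 7.12%. These are matches of letters, not measured binding. The 120 bases before the start are shown for 6 genes of mitotic entry, spindle, chromosome structure and exit, with matches of either motif on either strand in capitals. Cdc20, Ube2c, Cdk1, Kif11 and Top2a hold both motifs there, and Ccnb1 holds CCAAT without TTTGAA. These 6 were chosen by role and do not stand for all 29. In other genes the only TTTGAA lay after the start, outside the bases shown. In Aurka, Bub1b, Cenpf and Ttk it began at 33, 41, 3 and 8, with the start as 1. Birc5, Nuf2 and Nusap1 hold neither motif in the window.
Cdc20, chr4:118437344-118437463, minus strand: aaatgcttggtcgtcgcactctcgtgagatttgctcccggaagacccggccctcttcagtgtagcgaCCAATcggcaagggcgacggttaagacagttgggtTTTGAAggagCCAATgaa
Ube2c, chr2:164769809-164769928, plus strand: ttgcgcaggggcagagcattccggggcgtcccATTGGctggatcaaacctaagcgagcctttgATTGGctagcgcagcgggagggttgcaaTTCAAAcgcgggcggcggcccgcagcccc
Cdk1, chr10:69352913-69353032, minus strand: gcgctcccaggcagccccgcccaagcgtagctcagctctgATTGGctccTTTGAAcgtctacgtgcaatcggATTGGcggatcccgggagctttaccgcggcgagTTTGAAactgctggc
Kif11, chr19:37376262-37376381, plus strand: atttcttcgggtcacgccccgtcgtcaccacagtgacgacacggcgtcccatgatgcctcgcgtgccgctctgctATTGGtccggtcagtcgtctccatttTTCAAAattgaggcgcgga
Top2a, chr11:99024190-99024309, minus strand: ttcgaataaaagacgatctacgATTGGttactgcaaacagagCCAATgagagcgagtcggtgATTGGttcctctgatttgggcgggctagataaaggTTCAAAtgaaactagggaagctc
Ccnb1, chr13:100786487-100786606, minus strand: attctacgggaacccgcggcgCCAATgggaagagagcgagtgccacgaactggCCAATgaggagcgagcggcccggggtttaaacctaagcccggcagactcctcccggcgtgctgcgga
In Cdc20, Ube2c and Kif11 the CHR letters began 18, 29 and 19 bases before the start, that is, at -18, -29 and -19 with the start as 1.

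The first comparison asks whether mitotic transcripts differ between P95H/+ and wild-type progenitors. None of the 35 passed edgeR's quasi-likelihood test, which is two-sided, at a Benjamini-Hochberg adjusted p of 0.05 over all genes, and 0 of the 17144 genes tested did (0%). Of the 35, 0 had an unadjusted p under 0.05, against 2.11% of all genes tested, and the smallest, for Bub1b, was 0.186. DESeq2 and limma voom also called 0 of the 35. The fitted log2 fold changes of P95H/+ over wild type nonetheless lay above 0 for 34 of the 35 genes, against 53.1% of all genes tested. Their median was 0.19, against 0.02 for all genes tested, and they ran from -0.06 for Cdk1 to 0.32 for Mki67 and Tpx2. Their standard errors ran from 0.18 to 0.63, and a p that misses the threshold does not show that the levels were equal. The genes are transcribed in the same cells and are not independent of each other, so this count is a description and not a test.

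The size of the lean towards P95H/+ depended on which libraries entered. Without wild-type replicate 3, 18 of 35 lay above 0 with a median of 0.01, against 47.2% of all genes tested. Without P95H/+ replicate 3, 33 of 35 lay above 0 with a median of 0.29, against 49.5% of all genes. Without P95H/+ replicate 1, 26 of 35 lay above 0 and the median was 0.10, against 47.8% of all genes. With sex in the model the count was 24 with a median of 0.08, against 45.8% of all genes. When libraries were scaled by their totals alone, 29 of 35 lay above 0 with a median of 0.13, while 40.4% of all genes did.

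**Figure D1:**
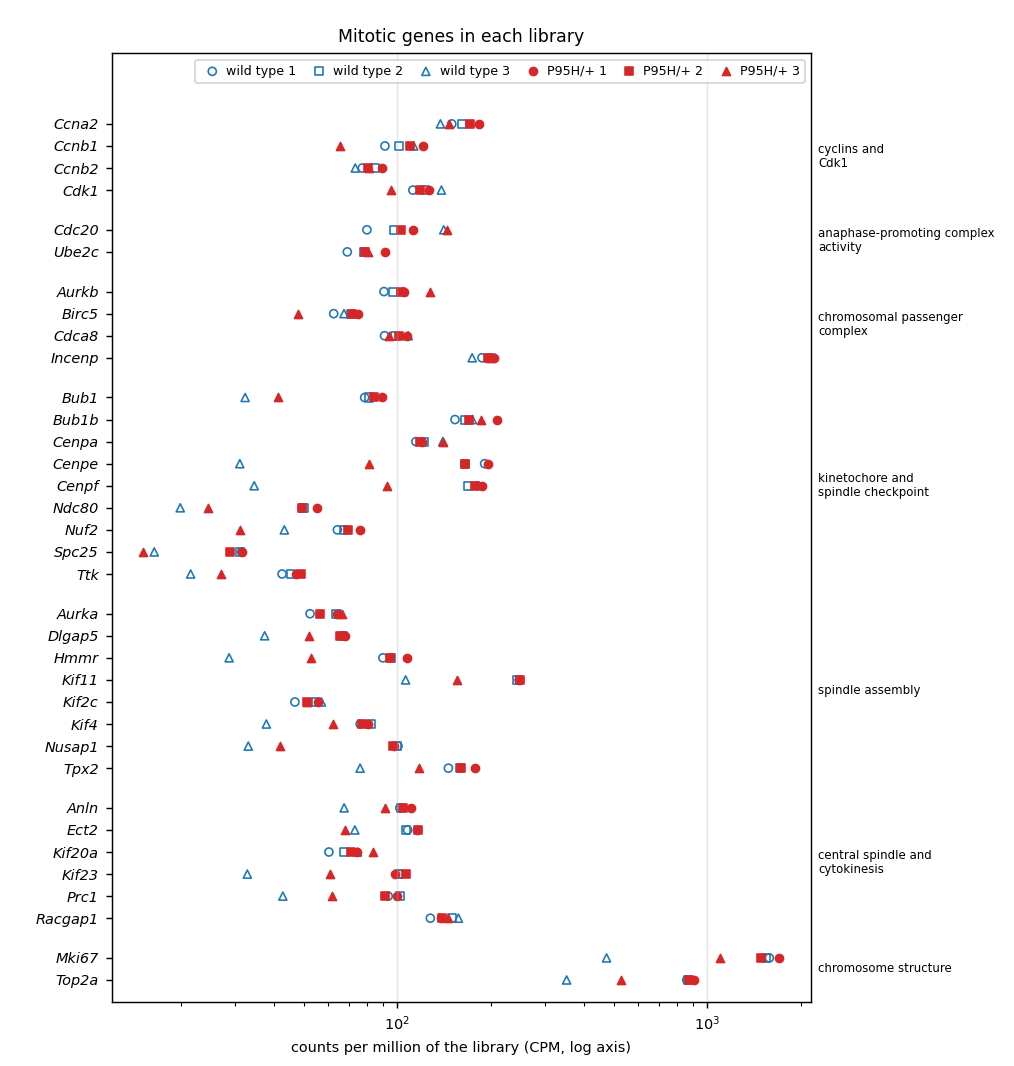
Level of each of the 35 mitotic genes in each library, in CPM on a log axis, grouped by role. Blue open symbols are wild-type and red filled symbols P95H/+ libraries, and circles, squares and triangles are replicates 1, 2 and 3. Circles and squares of both colours lie close together, while the triangles lie far to the left for genes such as Cenpe, Cenpf, Hmmr and Nusap1 and level with the others for genes such as Cenpa, Kif2c and Racgap1.

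Taking first the kinase that starts mitosis and its cyclins, 3 of 4 genes had a positive log2 fold change. Ccna2, the cyclin of S and G2 phase, stood at 149.9, 162 and 138 CPM in wild-type replicates 1, 2 and 3 and at 183, 171 and 147 CPM in those of P95H/+. The groups overlapped only through P95H/+ replicate 3, and the log2 fold change was 0.23 (SE 0.19, edgeR adjusted p 1). Ccnb1, cyclin B1 of mitotic entry, stood at 91.3, 101.5 and 113 CPM in wild type and at 121, 110.1 and 65.2 CPM in P95H/+. Its lowest and its highest library were both P95H/+, and its log2 fold change was 0.02 (SE 0.26, edgeR adjusted p 1). Ccnb2, cyclin B2, stood at 77.1, 84.8 and 73.2 CPM in wild type and 89.2, 80.3 and 80.9 CPM in P95H/+, with overlapping groups. Cdk1 was the 1 gene of the 35 with a negative value. It stood at 112, 123 and 139 CPM in wild type and at 127, 119 and 95.3 CPM in P95H/+, and its log2 fold change was -0.06 (SE 0.19).

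Ube2c and Cdc20 act at mitotic exit. Ube2c is the ubiquitin-conjugating enzyme of the anaphase-promoting complex, and it was the 1 gene of the 35 whose P95H/+ libraries all lay above all wild-type libraries, against 1.91% of all genes tested. In the opposite direction 0 of the 35 had groups apart, against 5.93%. Ube2c stood at 69.0, 78.4 and 78.1 CPM in wild type and at 91.0, 78.7 and 80.3 CPM in P95H/+. The gap between the groups was narrow, and its log2 fold change of 0.22 (SE 0.18) had an unadjusted p of 0.258. Cdc20, the activator of the complex that the spindle checkpoint holds back, stood at 79.8, 97.4 and 141 CPM in wild type and at 112, 103 and 144 CPM in P95H/+. Its highest libraries were the replicate 3 libraries of both genotypes, and its log2 fold change was 0.26 (SE 0.27), or 0.08 without P95H/+ replicate 3 and 0.09 without wild-type replicate 1. In the annotation, 13 of the 35 genes are overlapped by a gene on the opposite strand, among them Cdc20 (by Elovl1), Ube2c (Tnnc2), Ccna2 (Exosc9), Nusap1 (Oip5), Prc1 (Rccd1) and Kif4 (Pdzd11). Whether the counting used strand is not given in the sources used here, so the counts of all 13 may hold reads of such partners.

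The 4 genes of the chromosomal passenger complex, which corrects faulty chromosome attachments and later guides cytokinesis, had log2 fold changes from 0.02 to 0.28. Aurkb, its kinase, stood at 90.6, 96.9 and 104 CPM in wild type and at 105, 103 and 127 CPM in P95H/+. P95H/+ replicate 2 lay just below wild-type replicate 3, so the groups overlapped, and the log2 fold change was 0.28 (SE 0.20, edgeR adjusted p 1). Birc5 (survivin), which docks the complex on chromosomes, stood at 62.4, 71.0 and 67.3 CPM in wild type and 75.0, 71.4 and 47.9 CPM in P95H/+. Incenp, the scaffold, stood at 174 to 200.3 CPM in wild type and 196 to 206 CPM in P95H/+, and Cdca8 (borealin) at 91.0 to 108 and 94.1 to 108 CPM. These 4 genes had summed levels of 432 to 467 CPM in wild type and 469 to 494 CPM in P95H/+. The gap was narrow, from 466.8 CPM in wild-type replicate 2 to 468.8 CPM in P95H/+ replicate 3. Each of the 4 genes alone had overlapping groups.

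Kinetochore and spindle checkpoint genes differed widely in how much they varied between libraries. Bub1b (BubR1), a checkpoint protein that inhibits Cdc20, stood at 154, 166 and 175 CPM in wild type and at 209.6, 170.2 and 186 CPM in P95H/+. The groups overlapped through P95H/+ replicate 2, and the log2 fold change was 0.27 (SE 0.19, edgeR adjusted p 1). Cenpe, a kinetochore motor, stood at 191, 165 and 31.1 CPM in wild type and 196, 166 and 81.2 CPM in P95H/+. Cenpf, a large kinetochore protein, stood at 181, 169 and 34.6 CPM in wild type and 187, 178 and 92.8 CPM in P95H/+. In both genes the 4 libraries of replicates 1 and 2 lay close together and both replicate 3 libraries lay far below them, so the log2 fold changes of 0.25 and 0.31 carried standard errors of 0.63 and 0.58. Cenpa, the histone variant that marks the centromere, did the opposite, with 115, 122 and 140.2 CPM in wild type and 120.2, 118 and 141 CPM in P95H/+. Of the other 5, the checkpoint kinases Bub1 and Ttk and the Ndc80 complex subunits Ndc80, Nuf2 and Spc25 were each lowest in the replicate 3 libraries, with log2 fold changes from 0.01 for Spc25 to 0.24 for Ttk.

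Spindle assembly genes had log2 fold changes from 0.07 for Kif2c to 0.32 for Tpx2. Tpx2, which activates Aurka on the spindle, stood at 146, 159.7 and 75.9 CPM in wild type and at 178, 160.4 and 118 CPM in P95H/+, a log2 fold change of 0.32 (SE 0.32) that was 0.05 without wild-type replicate 3. Kif11 (Eg5), the motor that pushes the spindle poles apart, stood at 247, 244 and 106 CPM in wild type and 247, 249.4 and 156 CPM in P95H/+. For Tpx2 the highest library was P95H/+ replicate 1, while for Kif11 the 4 libraries of replicates 1 and 2 lay within 244 to 249.4 CPM. Hmmr, a spindle protein and hyaluronan receptor, stood at 89.9, 95.4 and 28.7 CPM in wild type and 107, 94.5 and 52.8 CPM in P95H/+. Nusap1, which bundles spindle microtubules, stood at 100.6, 100.03 and 33.1 CPM in wild type and 97.5, 96.8 and 42.0 CPM in P95H/+. Both had their lowest values in the replicate 3 libraries of both genotypes. Aurka, the spindle pole kinase, and Kif2c, a microtubule depolymerase, showed no such drop and stood at 52.3 to 66.4 and 46.8 to 56.9 CPM over all 6 libraries. Kif4, a chromosome-bound motor, and Dlgap5, a microtubule stabiliser, had log2 fold changes of 0.23 and 0.18.

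Genes of the central spindle and cytokinesis had log2 fold changes from 0.04 for Racgap1 to 0.26 for Kif20a. Kif20a, a motor of the central spindle, stood at 60.2, 67.5 and 74.5 CPM in wild type and 74.3, 70.7 and 83.6 CPM in P95H/+. The groups overlapped through wild-type replicate 3, and the unadjusted p was 0.226. Cdc23, on the opposite strand, overlaps Kif20a. Kif23, the partner motor of Racgap1, stood at 101, 101 and 32.8 CPM in wild type and 98.6, 107 and 60.8 CPM in P95H/+, while Racgap1, the GTPase-activating subunit, stood at 128, 150.2 and 158 CPM against 139, 139 and 146 CPM. These 2 proteins form 1 complex, and their transcripts parted in the replicate 3 libraries. Anln (anillin), Ect2, the activator of RhoA, and Prc1, the bundler of the midzone, had log2 fold changes of 0.24, 0.13 and 0.15. That of Anln was 0.06 without wild-type replicate 3.

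Mki67 and Top2a act on chromosome structure, Ki-67 as the coat of mitotic chromosomes and topoisomerase IIα in untangling DNA. Mki67 stood at 1586, 1546 and 473 CPM in wild type and at 1709, 1488 and 1099.7 CPM in P95H/+. Top2a stood at 859, 866 and 352 CPM in wild type and 904, 876 and 529 CPM in P95H/+. In both genes wild-type replicate 3 was the lowest library and P95H/+ replicate 3 the next, and the groups overlapped. Their log2 fold changes were 0.32 (SE 0.45) and 0.22 (SE 0.38). Together they made up between 24.5% and 42.3% of the summed counts of the 35 genes. Per kilobase of transcript, in the mean of the 4 libraries of replicates 1 and 2, Top2a (168 CPM per kb) and Mki67 (157) also stood highest, followed by Cenpa (81.0). The lowest was Kif4 (15.9).

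**Figure D2:**
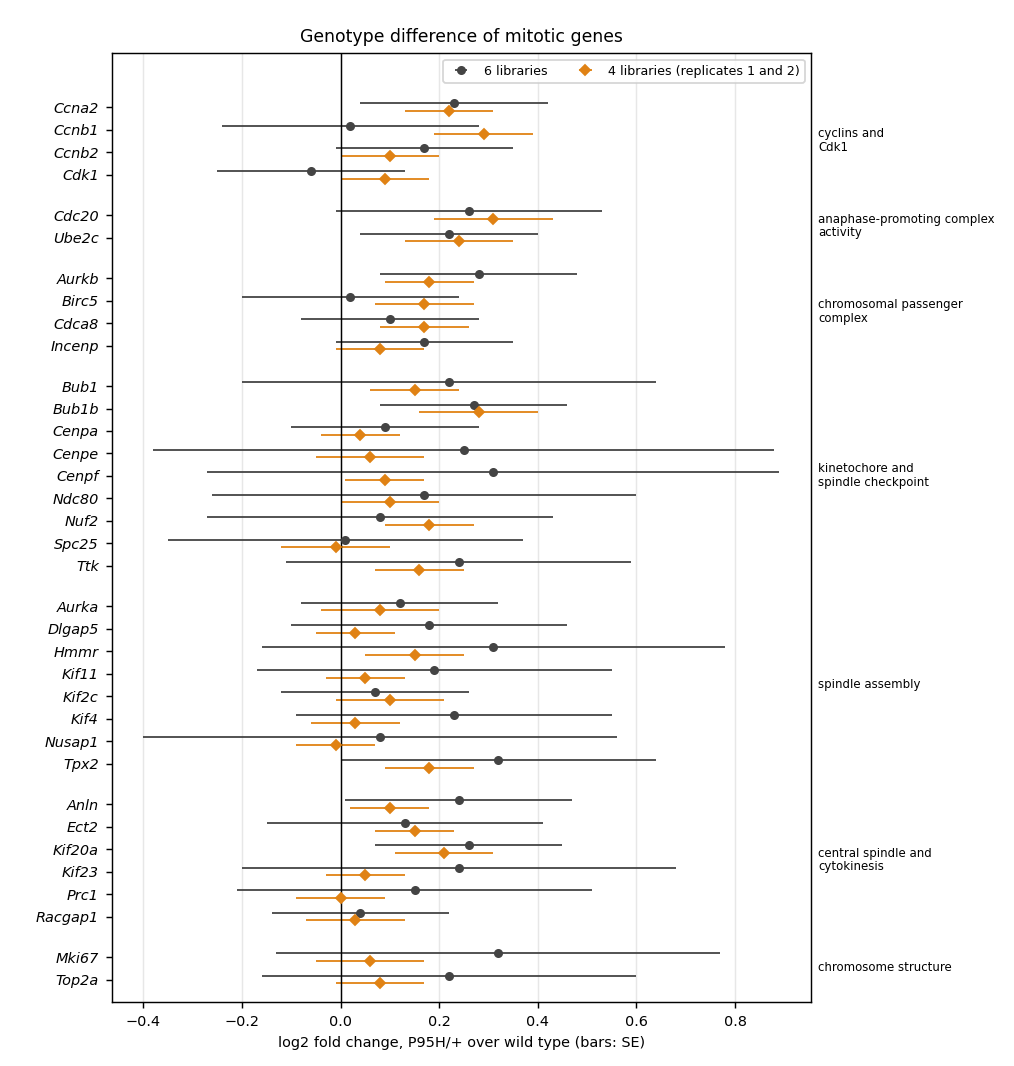
Log2 fold change of P95H/+ over wild type for each of the 35 genes, with its SE as bars, from all 6 libraries (grey circles) and from replicates 1 and 2 alone (orange diamonds). Grey values lie above 0 for 34 of 35 genes with SE of 0.18 to 0.63. Orange values lie above 0 for 33 of 35 with a median of 0.10 and mostly shorter bars.

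The summed level of the 35 genes was 5782, 5918 and 3366 CPM in wild-type replicates 1, 2 and 3 and 6378, 5890 and 4461 CPM in those of P95H/+. The means were 5022 ± 1436 CPM in wild type and 5576 ± 996 CPM in P95H/+ (SD, n = 3 each), so the difference was smaller than the spread within either genotype. Both replicate 3 libraries lay below the other 4, and P95H/+ replicate 1 held the highest level.

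In the 4 libraries of replicates 1 and 2 the median SE of the mitotic log2 fold changes was 0.09, against 0.28 with 6 libraries. The 2 libraries that differed from the others were left out here, and only 2 libraries remained in each genotype. What made the SE smaller was not tested. Both P95H/+ libraries here came from females aged 32 weeks. The wild-type ones came from a female aged 54 weeks and a male aged 32 weeks. Genotype cannot be told apart from age and sex in this comparison. Of the 35, 33 lay above 0, against 49.6% of the 17371 genes tested, with a median of 0.10. None passed edgeR's test, where 0.829% of all genes did, and the smallest adjusted p was 0.201, for Ccnb1. An unadjusted p under 0.05 was found for 5 genes, Ccnb1, Cdc20, Ccna2, Bub1b and Kif20a, near the share of 15.6% over all genes tested. Both P95H/+ libraries lay above both wild-type libraries for 16 of the 35, against 19.9% of all genes tested, and below them for 1, Nusap1, against 28.2%. In this comparison the log2 fold change was 0.29 (SE 0.10) for Ccnb1, 0.31 (SE 0.12) for Cdc20 and 0.28 (SE 0.12) for Bub1b.

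Within these 4 libraries the ends of the range were most often the replicate 1 libraries. P95H/+ replicate 1 was the highest of the 4 for 26 of the 35 genes, and wild-type replicate 1, the library of the 54-week animal, was the lowest for 24. Against each other, P95H/+ replicate 2 lay above wild-type replicate 2 for 20 of 35. With P95H/+ replicate 1 left out of the 4, 25 of 35 lay above 0 with a median of 0.03, against 49.1% of all genes. With wild-type replicate 1 left out in its place, 27 of 35 lay above 0 with a median of 0.08, against 50.9%. Both of these fits were chosen after the levels by library were seen.

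Stem cell markers leaned the other way, without a call. Of a list of 12 stem cell markers, 11 could be tested, and 10 of them had a negative log2 fold change with 6 libraries and all 11 with replicates 1 and 2 alone. In either comparison 0 of them were called. For this and the lists below, 53.1% of all genes tested lay above 0 in 6 libraries and 49.6% in 4. Their summed level was 663, 513 and 417 CPM in wild-type replicates 1, 2 and 3 and 356, 475 and 354 CPM in those of P95H/+, and none was at 0 in all 6 libraries. Wild-type replicate 1 thus held the highest level of stem cell markers and P95H/+ replicate 1 the lowest among replicates 1 and 2, where the mitotic genes had the reverse order. Wild-type replicate 1 is also the library of the 54-week animal, so age and genotype cannot be told apart in this contrast. Markers of granulocyte and monocyte progenitors summed to 7511 to 12751 CPM in wild type and 9358 to 10601 CPM in P95H/+, with 9 of 10 above 0 in 6 libraries and 8 of 10 in the 4 of replicates 1 and 2. Erythroid markers summed to 1311 to 1746 CPM and 1126 to 2538 CPM, with 12 of 14 above 0 in 6 libraries but 6 of 14 in 4, where 1 was called lower. Mature neutrophil markers summed to 951, 305 and 464 CPM in wild-type replicates 1, 2 and 3 and 473, 348 and 1548 CPM in P95H/+. Of these markers, 10 of 10 lay above 0 in 6 libraries, where P95H/+ replicate 3 held the highest level. In the 4 of replicates 1 and 2 it was 2 of 10, and wild-type replicate 1 held the highest level there. B cell markers summed to 133 to 278 CPM and 113 to 224 CPM, with 3 of 10 above 0 in 6 libraries and 0 of 10 in 4, where the median log2 fold change was -0.88 and 1 was called lower. T and NK cell markers summed to 6.83 to 17.7 CPM and 4.29 to 7.54 CPM, and all 5 tested lay below 0 in both comparisons. The part of these cell types in the mitotic levels was not tested.

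**Figure D3:**
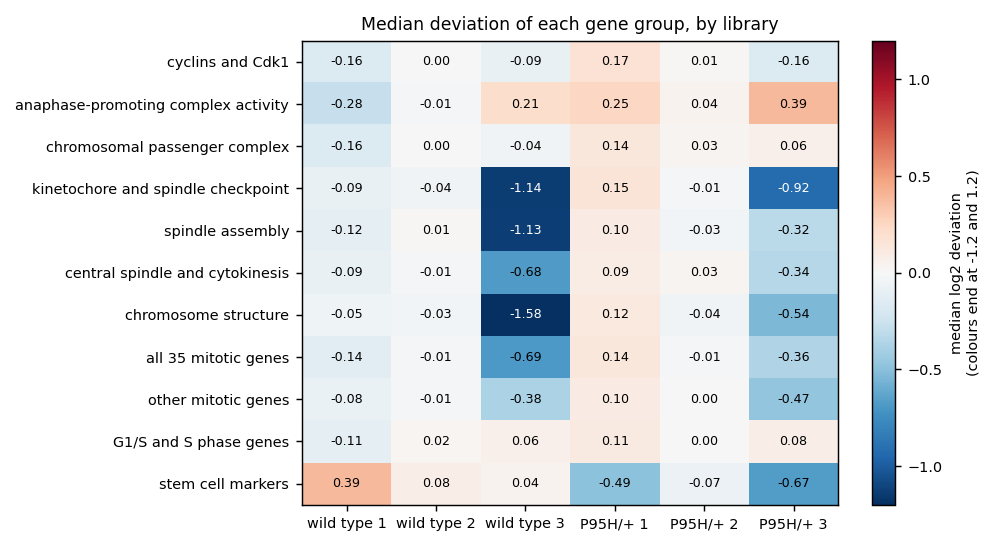
Median log2 deviation of each group of genes in each library from the mean of the 4 libraries of replicates 1 and 2, on TMM-scaled log2 CPM. Rows are the 7 role groups, all 35 mitotic genes and 3 further lists, and columns are libraries. Over all 35 genes the replicate 3 libraries stand at -0.69 (wild type) and -0.36 (P95H/+), while G1/S and S phase genes stand at 0.06 and 0.08 there.

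The replicate 3 libraries split the mitotic genes by a property of their transcripts. Relative to the mean of the 4 other libraries, on TMM-scaled log2 CPM, the 12 genes whose transcripts had 45% GC or less lay at a median of -1.38 in the wild-type library and -0.82 in the P95H/+ library. The 9 genes above 50% had medians of 0.07 and 0.16. Over all genes tested the same GC ranges gave -0.63 and -0.81 for low GC and 0.32 and 0.48 for high GC. In P95H/+ replicate 3 the low-GC mitotic genes thus had a median near that of all genes in the range. In wild-type replicate 3 their median was lower. The high-GC mitotic genes had lower medians than all genes above 50% in both libraries. The 35 transcripts ran only from 40.2% to 55.6% GC, while the low and high ranges of all genes had no outer limit. These medians therefore do not compare genes of like GC content. Across the 35 genes the deviation correlated with GC content at Pearson r = 0.682 in the wild-type library and 0.839 in the P95H/+ one, where all points share the same libraries. Over 17078 genes tested the values were 0.588 and 0.638, so the relation was not particular to the mitotic genes.

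Transcript length also went with the deviation in wild-type replicate 3. Across the 35 genes its correlation with log2 length was r = -0.661, against -0.0163 over 17078 genes tested. After a GC correction it was -0.633, against 0.0285. In P95H/+ replicate 3 the value was -0.39, against 0.152 over all genes tested. After the correction it was -0.0796, against 0.255. The 3 longest transcripts were those of Cenpf (11.13 kb, GC 43.3%), Mki67 (10.06 kb, 46.6%) and Cenpe (7.91 kb, 42.9%). Their deviations were -2.42, -1.79 and -2.58 for wild-type replicate 3 and -0.86, -0.43 and -1.05 for P95H/+ replicate 3. The shortest, Cenpa (1.47 kb, 47.3%), had deviations of 0.18 and 0.34. Cenpf lies at chr1:189640606-189688086, Mki67 at chr7:135689784-135716361 and Cenpe at chr3:135212537-135273611 on mm10, all protein coding genes. After the GC correction the 35 genes lay at a median of -0.38 in the wild-type library and 0.02 in the P95H/+ one. With that correction the genotype comparison gave 34 of 35 genes above 0, against 55.4% of all genes, a median of 0.24 and again 0 calls.

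**Figure D4:**
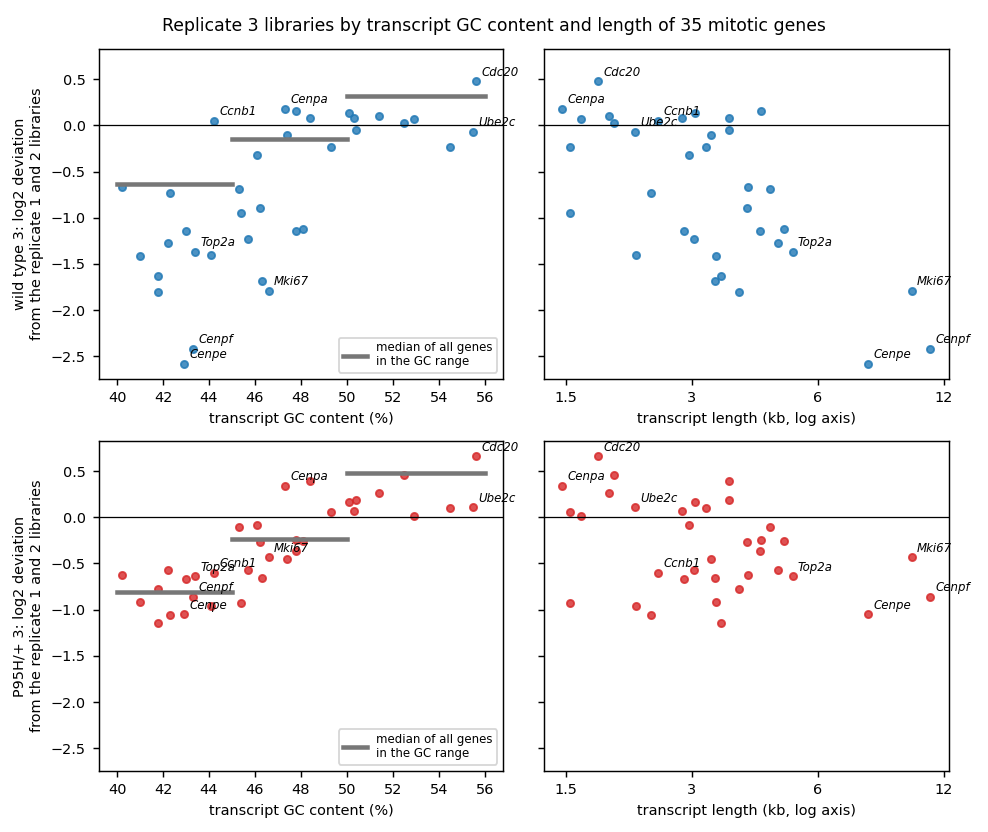
Log2 deviation of wild-type replicate 3 (top, blue) and P95H/+ replicate 3 (bottom, red) from the mean of the 4 libraries of replicates 1 and 2, for each of the 35 genes, against transcript GC content (left) and transcript length on a log axis (right). Grey bars are medians of all genes tested in each GC range, where the low and high ranges had no outer limit. Genes of 45% GC or less lie below 0 in both libraries, except Ccnb1 at 0.05 in wild-type replicate 3. The long transcripts of Cenpe, Cenpf and Mki67 lie at -1.79 to -2.58 in wild-type replicate 3.

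Other mitotic genes also lay mostly above 0, without a call in 6 libraries. Of 60, 47 had a positive log2 fold change with a median of 0.14, and 1 had an unadjusted p under 0.05. This was Psrc1, a spindle microtubule protein, at 16.2, 15.8 and 14.1 CPM in wild type and 19.9, 19.1 and 24.8 CPM in P95H/+. Its groups did not overlap, and its log2 fold change was 0.55 (SE 0.22, edgeR adjusted p 1). Plk1, the polo-like kinase of mitotic entry, stood at 50.2, 63.9 and 70.1 CPM in wild type and 71.7, 61.6 and 113 CPM in P95H/+, with overlapping groups. Its log2 fold change was 0.50 (SE 0.29), or 0.17 without P95H/+ replicate 3. In the 4 libraries of replicates 1 and 2, 52 of 60 lay above 0 with a median of 0.10, and 1 was called. This was Bora, the activator of Aurka and Plk1, named after its values were seen, at 54.1 and 54.5 CPM in wild type and 69.8 and 76.9 CPM in P95H/+ (log2 fold change 0.46, SE 0.09, edgeR adjusted p 0.0454). P95H/+ replicate 3 held 46.2 CPM of Bora, less than any wild-type library.

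G1/S and S phase genes were compared in the same way. Of 52, 35 lay above 0 with a median of 0.09, and 0 were called. With replicates 1 and 2 alone, 40 of 52 lay above 0. Their summed level was 9875, 10485 and 11188 CPM in wild type and 10823, 10560 and 10831 CPM in P95H/+, with no drop in replicate 3. Their median GC content was 49.6%, against 46.3% for the 35 mitotic genes. Ccnd1, cyclin D1 of G1 phase, stood at 30.7, 40.5 and 41.4 CPM in wild type and 15.7, 20.5 and 33.6 CPM in P95H/+, with overlapping groups and a log2 fold change of -0.61 (SE 0.33), or -0.95 in replicates 1 and 2 alone. Lig1, the ligase of lagging strand synthesis, stood at 231, 231 and 207 CPM in wild type and 261, 247 and 269 CPM in P95H/+, with groups apart and a log2 fold change of 0.29 (SE 0.18).

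Regulators of G2/M transcription went both ways, with 10 of 17 above 0, a median of 0.04 and 0 calls. With replicates 1 and 2 alone, 11 of 17 lay above 0. Nfya, a subunit of the CCAAT-binding factor NF-Y, stood at 264, 261 and 256 CPM in wild type and 209, 219 and 186 CPM in P95H/+, with groups apart and a log2 fold change of -0.27 (SE 0.17, edgeR adjusted p 1). For E2f4, the E2F of the repressive DREAM complex, it was 0.38 (SE 0.34), and 0.02 without P95H/+ replicate 3. Foxm1 and Mybl2 activate G2/M genes and were named after their values were seen. Their log2 fold changes were 0.25 (SE 0.30) for Foxm1 and 0.23 (SE 0.34) for Mybl2, which turned to -0.09 and -0.06 without P95H/+ replicate 3.

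Of 13 genes of the mitotic entry switch, 7 lay above 0 with a median of 0.01. With replicates 1 and 2 alone, 4 of 13 lay above 0. Cdkn1a (p21), an inhibitor of cyclin-dependent kinases, stood at 50.6, 59.8 and 35.4 CPM in wild type and 20.2, 22.6 and 29.0 CPM in P95H/+. Its groups did not overlap, with a log2 fold change of -0.95 (SE 0.28) and an edgeR adjusted p of 1. In the 4 libraries of replicates 1 and 2 it passed the test at -1.34 (edgeR adjusted p 0.00128), as the 1 call of this list. For Cdkn1b (p27), a related inhibitor, the groups overlapped, with a log2 fold change of -0.27 (SE 0.23), or -0.12 without wild-type replicate 1.

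Core subunits and partners of the anaphase-promoting complex and checkpoint had 18 of 21 genes above 0, a median of 0.09 and 0 calls. With replicates 1 and 2 alone, 14 of 21 lay above 0. Cdc16, a core subunit, stood at 72.5, 76.9 and 67.6 CPM in wild type and 93.2, 85.8 and 73.1 CPM in P95H/+, a log2 fold change of 0.29 (SE 0.19), and Anapc15 had 0.24 (SE 0.20). Genes of the constitutive centromere, spindle and passenger partners had 11 of 19 above 0 with a median of 0.02, and 13 of 19 with replicates 1 and 2 alone. The log2 fold change was 0.25 (SE 0.27) for Rcc1, the exchange factor of Ran, and 0.23 (SE 0.23) for Pmf1, a kinetochore protein. Without P95H/+ replicate 3 these were 0.01 and 0.04.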

How the data were processed

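The deposited count table holds the authors' raw counts per gene. The authors' CPM tables are counts per 1000000 of a library, and in the unfiltered one they equal count over library total within 5e-04. Per the submitters' processing notes, Trim Galore, cutadapt, STAR 2.5.3a, Picard 1.96, featureCounts, Subread 1.5.1, edgeR, limma and mm10 were used, without roles. All results start from counts.

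Genotypes were compared with edgeR 4.0.16 (R 4.3.3; TMM, filterByExpr, robust quasi-likelihood fit, Benjamini-Hochberg at 0.05), with no other covariate. SE follows from the F statistic. DESeq2 1.42.0, limma 3.58.1 (voom), other scalings and filters, sex, replicate block, GC correction and left-out libraries were alternatives. The GC correction fits, per library, log2 deviations by transcript GC with a natural spline of 4 degrees of freedom and enters it as an offset. Log2 CPM used a prior count of 2. Length and GC are of the longest protein coding transcript in GENCODE M21.

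Replicate numbers were taken as the blocks of the replicate block fit. Deviations from group means correlated at 0.372, 0.348 and 0.613 for numbers 1, 2 and 3. Wild-type replicate 1 with P95H/+ replicate 2 gave 0.463, and wild-type replicate 2 with P95H/+ replicate 1 gave 0.386. Deviations within a genotype balance out, so outlying replicate 3 libraries alone can raise the values among numbers 1 and 2. These correlations therefore cannot decide whether the numbers 1 and 2 are pairs.

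The 35 genes and all lists were chosen with earlier results of these data known. Named are all 35 genes, up to 4 called genes of each further list or else the 2 with the smallest p, Srsf2 and Kit, and markers that give a cell type's level. Foxm1, Mybl2 and Bora were named after their values were seen.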

Additional observations from a re-analysis of the deposited data

How the results depend on the processing

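No setting called any of the 35 genes. The count over all genes rose from 0 to 8 with DESeq2, 97 with voom and sample quality weights, 1 with the replicate block, 1 with GC correction and replicate block, and 144 in the 4 libraries of replicates 1 and 2. Of those 4, leaving out wild-type replicate 1 gave 531 and leaving out P95H/+ replicate 1 gave 99, fits with 1 library in a group, which is assumed to vary like the other group. Leaving out each of the 6 libraries gave 0 to 1 over all genes and 18 to 34 of the 35 genes above 0. With the replicate block 33 of 35 lay above 0, with a median of 0.23, and no call among the 35 changed. A log2 fold change above 0 in every one of the 21 fits was found for 10 genes, Ccna2, Cdc20, Aurkb, Bub1b, Kif20a, Tpx2, Ube2c, Cdca8, Incenp and Anln. Among these, leaving out each library gave Tpx2 0.05 to 0.54, Cdc20 0.08 to 0.50, Anln 0.06 to 0.36 and Cdca8 0.03 to 0.15.

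Directions turned as follows, and the cause was not tested. With library totals alone Ccnb1 was -0.04, Birc5 -0.05, Kif2c -0.01, Spc25 -0.06, Racgap1 -0.04 and Srsf2 -0.01. With the replicate block Ccnb1 was -0.01. With sample quality weights Cdk1 was 0.03, Spc25 -0.01 and Racgap1 -0.01. With sex in the model Ccnb1 was -0.10, Bub1 -0.07, Birc5 -0.06, Cenpe -0.10, Nusap1 -0.27, Nuf2 -0.23, Ndc80 -0.13, Spc25 -0.26, Prc1 -0.02 and Ect2 -0.06. In the 4 libraries Cdk1 was 0.09, Nusap1 -0.01 and Spc25 -0.01. Of these, without P95H/+ replicate 1, Mki67 was -0.06, Cdk1 0.02, Aurka -0.04, Cenpe -0.09, Kif4 -0.03, Nusap1 -0.04, Spc25 -0.10, Prc1 -0.09 and Dlgap5 -0.02. Without wild-type replicate 1 in its place, Cdk1 was 0.01, Aurka -0.06, Cenpa -0.01, Kif2c -0.02, Kif4 -0.05, Nusap1 -0.02, Spc25 -0.01, Prc1 -0.07 and Racgap1 -0.09.

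Leaving out each of the 6 libraries gave Birc5 -0.11 to 0.18, Bub1 -0.10 to 0.49, Ccnb1 -0.17 to 0.24, Cdk1 -0.17 to 0.03, Cenpa -0.02 to 0.16, Cenpe -0.21 to 0.63, Cenpf -0.14 to 0.63, Dlgap5 -0.05 to 0.33, Ect2 -0.04 to 0.33, Hmmr -0.07 to 0.60, Kif11 -0.12 to 0.38, Kif23 -0.14 to 0.48, Kif2c -0.01 to 0.12, Kif4 -0.05 to 0.45, Mki67 -0.07 to 0.56, Ndc80 -0.15 to 0.44, Nuf2 -0.16 to 0.37, Nusap1 -0.29 to 0.37, Prc1 -0.15 to 0.39, Racgap1 -0.05 to 0.09, Spc25 -0.25 to 0.25, Top2a -0.11 to 0.43, Ttk -0.04 to 0.45, Foxm1 -0.09 to 0.42 and Mybl2 -0.06 to 0.55. The lowest value of most of these came without wild-type replicate 3. The lowest count of any of the 35 genes was 163, so depth limited them less than the spread between libraries did.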
